A study of Mus musculus with 10 samples.

Results

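The schlafen genes examined here were Slfn1, Slfn2, Slfn3, Slfn4, Slfn5, Slfn8 and Slfn9, 7 of the 19938 genes that the array could name. Each was read by 1 probe set whose only gene symbol was its own, so the rule of taking the probe set with the highest mean level left nothing to choose. The values came from Affymetrix whole-transcript arrays of mouse marrow cultures. The treated cultures received recombinant mouse adiponectin, a hormone of fat cells, at 5 µg/ml, and the control cultures received vehicle. All cultures held marrow cells of male Swiss mice aged 4 to 6 weeks, kept in medium with fetal calf serum and calcitriol, the active form of vitamin D. At 4, 10, 24, 72 and 120 h, 1 adiponectin culture and 1 control culture were measured, so there were 10 arrays that form 5 pairs by time. The series title speaks of lipopolysaccharide, the bacterial endotoxin, as a contaminant, so the comparison is between cultures with and without the adiponectin preparation as given. Nothing in the labels ties a culture to its own animal. Each SD and p-value therefore reflects spread among cultures that may be technical in part, and this spread also holds any change with time.

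Schlafen genes take their name from the German word for sleep, because forced expression of Slfn1 stops the growth of mouse thymocytes. All members share a core domain that in several of them binds or cuts transfer RNA. The short members, Slfn1 and Slfn2, consist of little more than this core, the intermediate members Slfn3 and Slfn4 carry a further segment, and the long members Slfn5, Slfn8 and Slfn9 end in a helicase-like region. Many of them are induced by type I interferon in leukocytes, and Slfn4 is known to respond to lipopolysaccharide in mouse macrophages.

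In the RefSeq annotation the family forms a cluster on mouse chromosome 11 in the order Slfn5, Slfn9, Slfn8, Slfn10-ps, Slfn2, Slfn1, Slfn4, Slfn3 and Slfn14. The upstream windows of 5 members are shown because they carry, or lack, the core of the interferon-stimulated response element, the DNA motif bound by the interferon-activated factor ISGF3. Each window is the 250 bases before the annotated start in RefSeq (build GRCm38.p6), written 5′ to 3′ on the gene's own strand, with the motif core, spelled GAAA, any 2 bases and GAAA, in capitals on whichever strand it was found.
Slfn5, chr11:82951852-82952101, plus strand: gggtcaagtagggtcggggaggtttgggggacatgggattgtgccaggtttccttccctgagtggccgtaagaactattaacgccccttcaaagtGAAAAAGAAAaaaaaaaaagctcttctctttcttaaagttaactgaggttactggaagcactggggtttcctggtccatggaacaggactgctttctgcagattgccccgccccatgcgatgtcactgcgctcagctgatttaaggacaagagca
Slfn8, chr11:83020811-83021060, minus strand: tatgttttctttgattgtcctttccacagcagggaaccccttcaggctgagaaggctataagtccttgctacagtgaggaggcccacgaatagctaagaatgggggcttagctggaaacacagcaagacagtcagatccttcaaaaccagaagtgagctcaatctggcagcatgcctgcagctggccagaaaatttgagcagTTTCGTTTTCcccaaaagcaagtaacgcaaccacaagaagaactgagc
Slfn9, chr11:82991831-82992080, minus strand: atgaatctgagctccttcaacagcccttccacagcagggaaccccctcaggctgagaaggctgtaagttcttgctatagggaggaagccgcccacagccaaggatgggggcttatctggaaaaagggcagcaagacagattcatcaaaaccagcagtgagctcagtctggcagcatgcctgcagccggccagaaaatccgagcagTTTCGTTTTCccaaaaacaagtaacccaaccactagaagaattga
Slfn4, chr11:83174936-83175185, plus strand: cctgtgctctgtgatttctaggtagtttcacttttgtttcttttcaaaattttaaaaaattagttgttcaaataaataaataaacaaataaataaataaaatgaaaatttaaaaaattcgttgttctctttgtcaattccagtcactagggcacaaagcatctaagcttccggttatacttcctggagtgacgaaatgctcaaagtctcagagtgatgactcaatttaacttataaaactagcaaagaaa
Slfn1, chr11:83116570-83116819, plus strand: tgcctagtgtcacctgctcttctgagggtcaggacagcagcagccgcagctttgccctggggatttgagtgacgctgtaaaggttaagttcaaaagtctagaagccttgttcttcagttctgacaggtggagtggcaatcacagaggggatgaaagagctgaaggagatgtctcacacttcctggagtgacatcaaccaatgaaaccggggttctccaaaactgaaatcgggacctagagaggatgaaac
The core was found in 3 of the 7 members, against 2.98% of the 32851 windows of this length in the RefSeq table. In Slfn5 it reads GAAAAAGAAA and covers bases 155 to 146 before the start. In Slfn8 and in Slfn9 it reads TTTCGTTTTC, which is the core on the opposite strand, at bases 48 to 39 and 45 to 36 before the start. RefSeq lists 2 starts for Slfn8, and the same match lies at bases 136 to 127 before the other one, whose window overlaps the one shown. The Slfn8 and Slfn9 windows were 79.8% identical in a global alignment, so these matches do not count as separate occurrences. The windows of Slfn1, Slfn2, Slfn3 and Slfn4 did not hold these letters, and none of the 7 held the core of the gamma-activated site (TTC, any 3 bases and GAA, either strand), which 7.02% of all windows held. A match of letters describes the window and shows no binding. Only these spellings were searched, so a window without a match can still hold a variant of the motif.

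Adiponectin cultures had higher levels of all 7 schlafen genes. Each gene was higher in 5 of 5 pairs and each rose at an adjusted p under 0.05 (limma with time point as a block, Benjamini-Hochberg over all 19938 genes). The same call was made for 2.05% of all genes, and 6.32% of all genes were higher in 5 of 5 pairs. The median of the members' mean differences was 1.19 on the log2 scale, against 0.01 over all genes. The mean differences spanned 0.56 for Slfn2 and 2.28 for Slfn4. The lowest adiponectin array lay above the highest control array, whatever the time, for Slfn4, Slfn5, Slfn8 and Slfn9, 4 of the 7 members against 1.53% of all genes. The family was taken up with results of these data known, so its calls are not independent evidence. In marrow cultures of mixed cells, fewer cells of a type and less RNA per cell cannot be told apart.

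**Figure D1:**
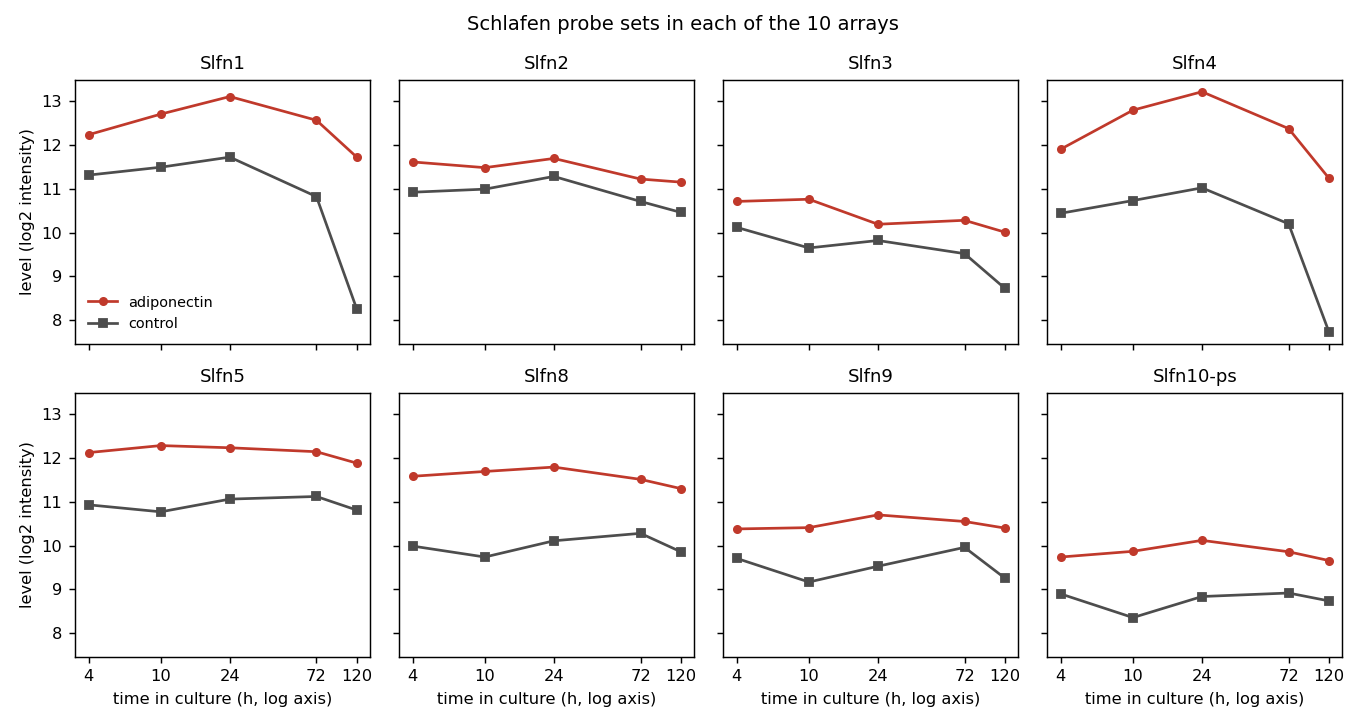
Level (log2 intensity) of the 7 schlafen genes and of Slfn10-ps against time in culture (h, log axis), 1 point per array, adiponectin in red and control in grey. Every red point lies above the grey point of its time, and the grey lines of Slfn1 and Slfn4 drop to 8.26 and 7.74 at 120 h.

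The short members differed from each other in the size of the rise. Slfn1, whose protein arrests T cell growth, had levels of 12.23, 12.70, 13.10, 12.56 and 11.72 log2 units in adiponectin cultures at 4, 10, 24, 72 and 120 h, against 11.31, 11.49, 11.72, 10.82 and 8.26 in control cultures. The adiponectin level was the higher one at each time, while the adiponectin value at 120 h equalled the control value at 24 h, to 2 decimals, so the arms met. Slfn1 rose by 1.74 ± 1.00 log2 units (mean ± SD over times, n = 5 pairs; 3.35-fold; limma adjusted p = 0.00644). Its SD was the widest of the 7, and the mean difference was 1.31 without the 120 h pair (limma adjusted p = 0.000335). Slfn2, which keeps mouse T cells and monocytes quiescent and whose loss lowers resistance to infection, had levels of 11.61, 11.48, 11.69, 11.22 and 11.15 in adiponectin cultures over the same times, against 10.92, 10.99, 11.28, 10.71 and 10.46 in control cultures. The arms overlapped, with the adiponectin levels at 72 and 120 h below the control level at 24 h. Slfn2 rose by 0.56 ± 0.13 (n = 5 pairs; 1.47-fold; limma adjusted p = 0.00191), the smallest mean rise of the 7.

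The intermediate members held the largest mean rise of the family and one of the smaller ones. Slfn4, a gene of immature myeloid cells, had levels of 11.90, 12.79, 13.21, 12.37 and 11.24 in adiponectin cultures from 4 to 120 h, against 10.44, 10.73, 11.02, 10.20 and 7.74 in control cultures. The lowest adiponectin level, at 120 h, was above the highest control level, at 24 h. Slfn4 rose by 2.28 ± 0.75 (n = 5 pairs; 4.84-fold; limma adjusted p = 0.00013), with the 19th largest mean rise of all named genes. Slfn3, studied in rodents for its part in the differentiation of gut epithelium, had levels of 10.71, 10.76, 10.19, 10.28 and 10.01 in adiponectin cultures, against 10.12, 9.65, 9.82, 9.52 and 8.73 in control cultures. Its arms overlapped, since the control level at 4 h exceeded the adiponectin level at 120 h. Slfn3 rose by 0.82 ± 0.37 (n = 5 pairs; 1.77-fold; limma adjusted p = 0.0034).

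The long members had arms that did not overlap at any pair of times. Slfn8, which slows T cell growth when overexpressed in mice, had levels of 11.58, 11.69, 11.79, 11.51 and 11.30 in adiponectin cultures from 4 to 120 h, against 9.99, 9.74, 10.11, 10.28 and 9.86 in control cultures. The arms were well apart, with more than 1 log2 unit between the lowest adiponectin level and the highest control level. Slfn8 rose by 1.58 ± 0.27 (n = 5 pairs; 2.99-fold; limma adjusted p = 7.77e-06), the lowest p of the family. Slfn5, a member with a nuclear protein, had levels of 12.12, 12.28, 12.23, 12.14 and 11.88 in adiponectin cultures, against 10.93, 10.77, 11.06, 11.12 and 10.81 in control cultures. No value of one arm came within the range of the other. Slfn5 rose by 1.19 ± 0.19 (n = 5 pairs; 2.29-fold; limma adjusted p = 1.77e-05). Slfn9 had levels of 10.38, 10.41, 10.70, 10.55 and 10.40 in adiponectin cultures, against 9.71, 9.17, 9.53, 9.96 and 9.26 in control cultures. Its arms did not overlap either, though the control level at 72 h came close to the lowest adiponectin level. Slfn9 rose by 0.96 ± 0.30 (n = 5 pairs; 1.95-fold; limma adjusted p = 0.000481).

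**Figure D2:**
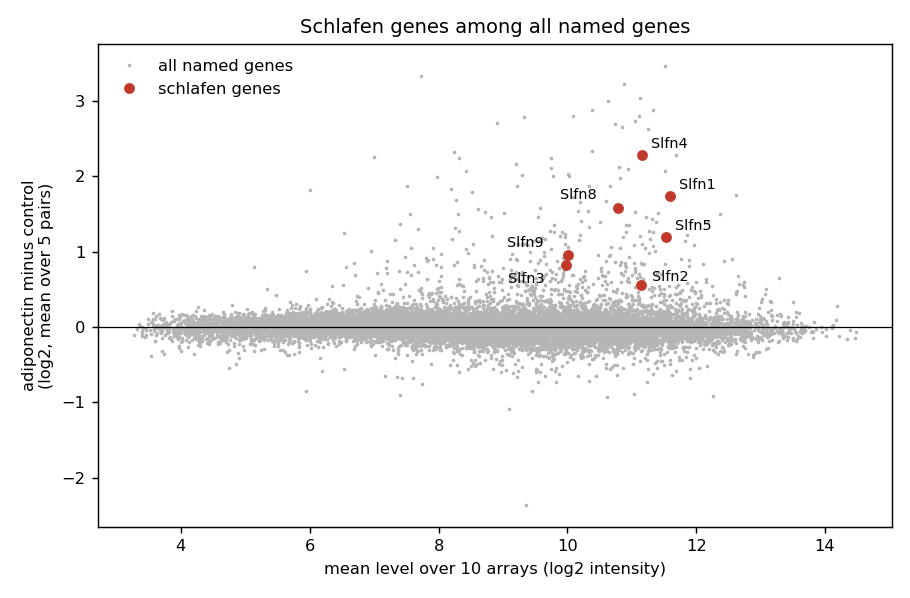
Mean adiponectin minus control difference (log2, over 5 pairs) against mean level (log2 intensity, over 10 arrays) for all 19938 named genes in grey and the 7 schlafen genes in red. The schlafen genes lie in the upper right of the cloud, between 0.56 and 2.28 in difference and between 9.98 and 11.59 in mean level.

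Some calls depended on the model. Without the time block, 3 of the 7 passed, against 0.732% of all genes (Slfn5, Slfn8 and Slfn9; highest adjusted p = 0.505, for Slfn1), and an ordinary test of the paired model, without limma's moderation, called 0 of 7 at adjusted p of 0.0686 to 0.391 and 0.0451% of all genes. In that test 7 of 7 had an unadjusted p under 0.05, against 5.50% of all genes with a positive difference. Slfn1 alone also lost its call when log2 hours replaced the block (limma adjusted p = 0.131) and with an intensity trend and robust prior (limma adjusted p = 0.214). Leaving out any 1 pair kept all 7 calls.

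All 7 differences were above 0 at the first time. At 4 h they ran between 0.59 for Slfn3 and 1.59 for Slfn8, and 3 of 7 members were at least 2-fold higher in adiponectin cultures, against 0.727% of all genes. At 10 h 6 of 7 were at least 2-fold higher (0.893% of all genes), at 24 h 5 of 7 (0.853%), at 72 h 4 of 7 (0.547%) and at 120 h 6 of 7 (0.752%). The member below 2-fold at 10 h and again at 120 h was Slfn2. With 1 array per arm and time these counts have no test. The control array at 10 h had the lowest median of the 10 arrays, at 8.27 log2 units, and the median difference of all genes at 10 h was 0.07. Repeated quantile normalization moved that median by -0.14 and centring the arrays on their medians moved it by -0.16. Both left 5 of 7 members at least 2-fold higher at 10 h, against 0.692% and 0.647% of all genes in that order. Repeated quantile normalization left 3 of 7 at 72 h (0.542% of all genes) and 5 of 7 at 120 h (0.772%).

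Slfn4 and Slfn1 differed most at 120 h. From 4 to 120 h the adiponectin minus control difference of Slfn4 was 1.46, 2.06, 2.19, 2.17 and 3.50 log2 units, and that of Slfn1 was 0.92, 1.21, 1.38, 1.75 and 3.46. Both therefore reached about 11-fold at 120 h, at 11.3-fold for Slfn4 and 11.0-fold for Slfn1. At 10 h Slfn8 was at 1.95, Slfn5 at 1.52 and Slfn9 at 1.23, each its largest difference in the values as deposited. For Slfn9 this did not hold after rescaling, with 1.08 at 10 h against 1.25 at 24 h after repeated quantile normalization, and 1.07 at 10 h against 1.22 at 120 h after median centring. At 72 h the 3 genes were at 1.23, 1.03 and 0.59, and they stood at 1.45, 1.07 and 1.14 at 120 h. Slfn3 was at 0.59, 1.11, 0.38, 0.76 and 1.28 and Slfn2 at 0.70, 0.49, 0.40, 0.52 and 0.69, with no steady direction in either.

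**Figure D3:**
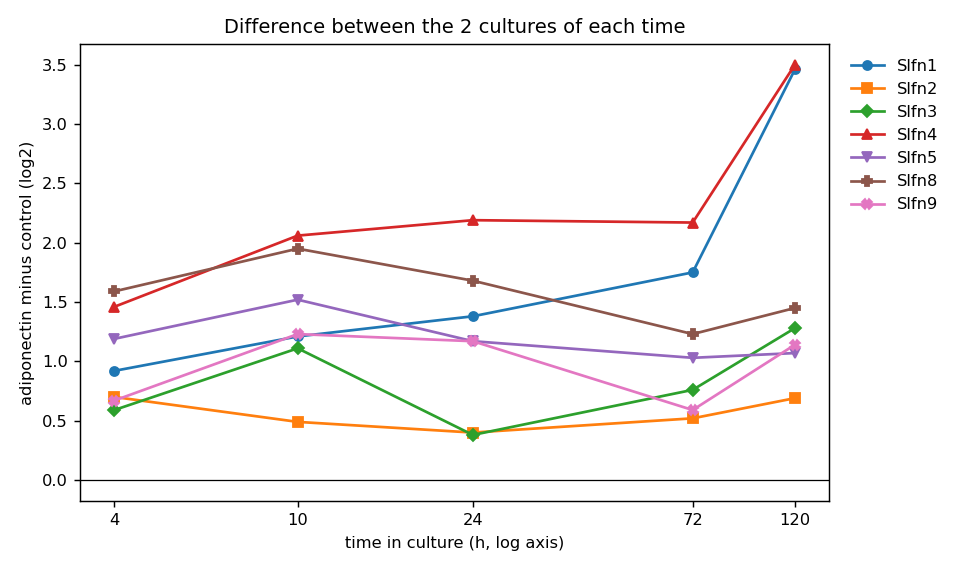
Adiponectin minus control difference (log2) of each schlafen gene at each time (h, log axis), 1 pair of arrays per point. All points lie above 0, Slfn1 and Slfn4 stand at 3.46 and 3.50 at 120 h, and the other members end between 0.69 and 1.45.

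A change of the difference with log2 hours was called for 0 of the 7 members and for 0% of all genes in either direction (limma, adjusted p under 0.05). The term was 0.42 per doubling of time for Slfn1 (95% interval 0.20 to 0.64; limma adjusted p = 0.436) and 0.31 for Slfn4 (0.14 to 0.48; limma adjusted p = 0.438). These 2 were also the members with an unadjusted p under 0.05, against 3.11% of all genes with a positive term, and the ordinary test gave 0. Without the 120 h pair the terms were 0.19 for Slfn1 and 0.16 for Slfn4, so their size rested on that pair. The other terms lay between -0.08 for Slfn8 and 0.07 for Slfn3. Their 95% intervals ran from -0.19 to 0.03 for Slfn8, from -0.16 to 0.04 for Slfn5, from -0.13 to 0.15 for Slfn9, from -0.10 to 0.09 for Slfn2 and from -0.08 to 0.23 for Slfn3. These intervals include 0 and leave slopes of that size possible.

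Within the adiponectin arm, Slfn1, Slfn4, Slfn8, Slfn9 and Slfn2 had their highest level at 24 h. Slfn4 spanned 1.97 log2 units over the 5 times and Slfn1 1.38, against 0.32 to 0.74 for the other members. The slope on log2 hours was called for 0 of 7 members in this arm (limma; adjusted p 0.143 to 0.931; 1 member, Slfn3, at an unadjusted p under 0.05, against 9.52% of all genes with a negative slope; ordinary test 0 at either), while 4.15% of all genes had a positive and 3.46% a negative slope past the threshold. Slfn3 had a slope of -0.14 ± 0.05 per doubling of time (SE). A straight line in log2 hours is a poor description of courses that peak at 24 h, so these slopes say little about Slfn1 and Slfn4.

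Within the control arm, Slfn3 fell by 0.22 ± 0.05 log2 units per doubling of time (SE; limma adjusted p = 0.0321), the 1 member called, against 4.45% of all genes with a negative slope past the threshold and 4.64% with a positive one. That call was lost without the 4, 10, 72 or 120 h pair (highest limma adjusted p = 0.481), with the arrays of the arm alone, and in the ordinary test (adjusted p = 0.116). The slopes of Slfn1 and Slfn4 were -0.50 and -0.43 (limma adjusted p = 0.106 and 0.187). Without the 120 h pair they were -0.10 and -0.04, so their size rested on that pair. In this arm too, Slfn1, Slfn4 and Slfn2 had their highest level at 24 h, at 11.72, 11.02 and 11.28. A straight line is a poor description of these courses as well. Slfn5, Slfn8 and Slfn9 had their highest control level at 72 h and Slfn3 at 4 h. With hours on a linear scale, which gives the late times more weight, 4 members fell: Slfn1, Slfn3, Slfn4 and Slfn2 (limma adjusted p = 0.00353, 0.00637, 0.0148 and 0.0472), against 6.70% of all genes with a negative slope at that setting. Slfn5, Slfn8 and Slfn9 had control slopes of 0.01, 0.03 and 0.00 per doubling of time.

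Slfn1 and Slfn4 had the largest steps of the family between 72 and 120 h in both arms. In the adiponectin arm Slfn1 was 1.80-fold and Slfn4 2.20-fold lower at 120 h than at 72 h, and 1 of 7 members was at least 2-fold lower, against 0.542% of all genes. In the control arm Slfn1 was 5.89-fold and Slfn4 5.50-fold lower, the 4th and 5th lowest of the 19938 steps there. In that arm 2 of 7 members were at least 2-fold lower, against 0.677% of all genes. Slfn3 was 1.20-fold lower at 120 h in the adiponectin arm and 1.73-fold lower in the control arm. Each step compares 1 array with 1 array and has no replicate.

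Markers of the cells in the cultures also differed between times. The mean level of 8 neutrophil markers, among them Ly6g and Camp, was 12.99, 13.08, 12.91, 11.53 and 9.91 log2 units in adiponectin cultures from 4 to 120 h, against 13.28, 13.21, 13.06, 12.01 and 10.05 in control cultures. That of 5 B cell markers was 9.28 in the adiponectin culture and 9.04 in the control culture at 120 h, and 11.29 and 11.28 at 4 h. Both lists thus had lower levels at 120 h than at 4 h in both arms. The 7 T and NK cell markers, cells in which Slfn1 and Slfn2 are known to be expressed, had a mean level of 7.86 in the adiponectin culture at 120 h, against 7.06 in the control culture, and of 7.78 against 7.89 at 4 h. Within that list Nkg7, a cytotoxic granule gene, differed by 2.33 at 120 h and Cd3g, a part of the T cell receptor complex, by 0.92, whereas Cd3d differed by -0.13. Monocyte and macrophage markers (5 measured: Csf1r, Cd68, Adgre1, Mertk and Ccr2) had mean levels of 12.01 to 12.56 in adiponectin cultures. In control cultures these means were 12.00 to 12.57. Within that list Ccr2 was at 10.39 at 4 h and 8.32 at 120 h in adiponectin cultures, against 11.45 and 8.26 in control cultures. Csf1r, Cd68, Adgre1 and Mertk had no fall of this size in either arm. Adgre1 differed by 0.57 and 0.64 at 10 and 24 h, where Ccr2 differed by -0.27 and -0.37. Osteoclast markers differed most at 72 h, at 10.87 in the adiponectin culture and 12.12 in the control culture. Over times, 0 of the 41 measured markers of 7 lists passed the test of the adiponectin effect (limma, adjusted p under 0.05), and 15 had an unadjusted p under 0.05. Of these 15, 5 were positive, or 12.2% of the markers against 5.91% of all genes, and 10 were negative, or 24.4% against 4.21%. The 8 neutrophil markers differed by -0.36 to -0.06, with a median of -0.28, and the 6 osteoclast markers by -0.54 to -0.01, with a median of -0.33. On this array no marker can be at 0, and the part of these cells in the schlafen differences was not tested.

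**Figure D4:**
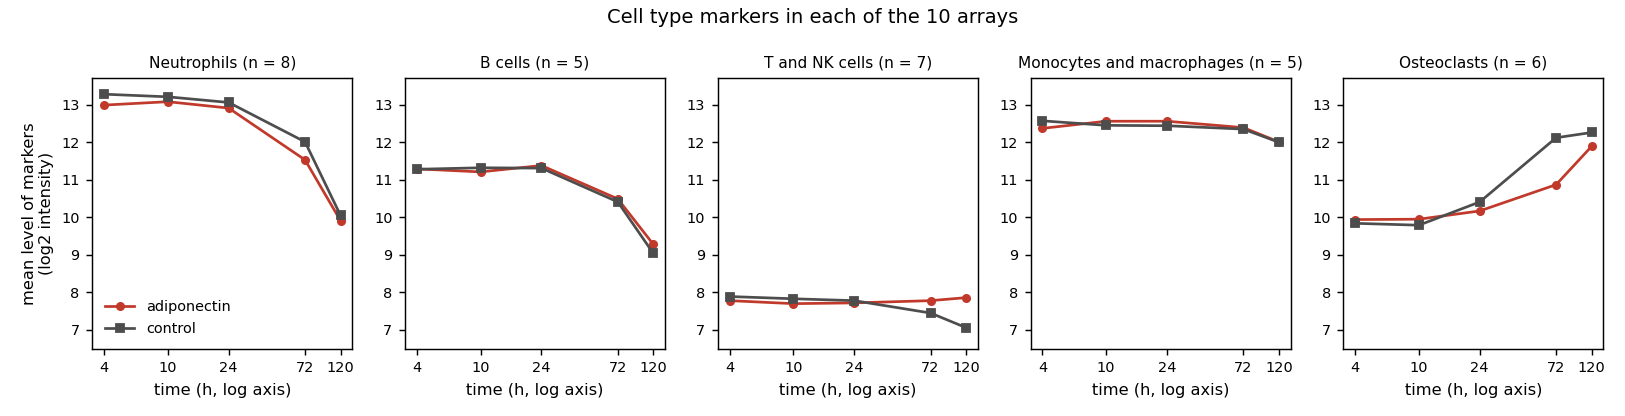
Mean level (log2 intensity) of 5 marker lists in each array against time (h, log axis), adiponectin in red and control in grey, with the number of measured markers in each title. Neutrophil and B cell markers are lower at 120 h than at 4 h in both arms, and T and NK cell markers part at 120 h, at 7.86 with adiponectin and 7.06 in the control.

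Across the 10 arrays the members formed a tighter and a looser set. The levels of Slfn5, Slfn8 and Slfn9 correlated at Pearson r of 0.95 to 1.00 with each other, and those of Slfn1 and Slfn4 at 0.98. Slfn2 and Slfn3 correlated at 0.85 to 0.91 with Slfn1, Slfn4 and each other. Between the long members and the other 4, r lay between 0.71 and 0.83. The arrays share treatment and time, so these correlations (n = 10 arrays) are a description and have no test. Probe sequences were not used here, and how far the probe sets of related members read each other's transcripts was not tested.

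The genes whose levels ran most like a member's over the 10 arrays differed within these sets as well as between them. Slfn5 and Slfn8 shared Ifit3b and Ddx58, and no other members shared a nearest gene. For Slfn5 they were the antiviral gene Ifit3b (r = 0.992), the chemokine gene Ccl5 (0.992) and Ddx58 (0.991), which encodes the RNA sensor RIG-I, and for Slfn8 they were Ifit3b (0.994), the ISG15 protease gene Usp18 (0.992) and Ddx58 (0.991). Slfn9 was nearest to Tcof1 (0.970), Ifi202b (0.966) and Trim30d (0.966). Slfn4 was nearest to Ms4a4c (0.983), the inhibitory receptor gene Pilra (0.983) and Cd72 (0.977), and Slfn1 to the centriole gene Sass6 (0.970), Bst1 (0.969) and Plac8 (0.966). These genes were chosen by their correlation, over the same arrays, with members that were higher in adiponectin cultures. Their own rises follow in large part from that choice and are not separate evidence. Of the genes nearest to Slfn4, Ms4a4c rose by 2.28 ± 0.95 log2 units (limma adjusted p = 0.000722), Cd72 by 0.84 ± 0.27 and Pilra by 0.35 ± 0.10. Of those nearest to Slfn1, Plac8 rose by 1.43 ± 1.09 (limma adjusted p = 0.0339), Bst1 by 0.95 ± 0.57 and Sass6 by 0.63 ± 0.39. Those nearest to Slfn5 and Slfn8 rose by 3.47 ± 0.52 (Ccl5), 3.33 ± 0.73 (Ifit3b), 2.63 ± 0.25 (Usp18) and 1.22 ± 0.15 (Ddx58; n = 5 pairs each). Slfn2 was nearest to Nr1h3 (0.976), the gene of the oxysterol receptor LXR-alpha, Rnf31 (0.976), a subunit gene of the linear ubiquitin ligase, and Ifi205 (0.968). Slfn3 was nearest to Ifi209 (0.967), Lpcat2 (0.961) and Irf2 (0.949). Those nearest to Slfn9 rose by 2.16 ± 0.53 (Trim30d), 1.33 ± 0.23 (Ifi202b) and 0.34 ± 0.10 (Tcof1). Those nearest to Slfn2 rose by 2.80 ± 0.66 (Ifi205), 0.60 ± 0.03 (Nr1h3) and 0.45 ± 0.12 (Rnf31). Near Slfn3, Ifi209 rose by 2.00 ± 0.80 and Lpcat2 by 0.43 ± 0.09, while Irf2, at 0.28 ± 0.07, was not called (limma adjusted p = 0.0702).

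Other genes of the family and of its neighbourhood were compared in the same fit. Slfn10-ps, which its symbol marks as a pseudogene and which lies between Slfn8 and Slfn2, had levels of 9.74, 9.87, 10.12, 9.86 and 9.66 in adiponectin cultures from 4 to 120 h, against 8.90, 8.36, 8.84, 8.92 and 8.74 in control cultures. The arms did not overlap, and it rose by 1.10 ± 0.28 (n = 5 pairs; 2.14-fold; limma adjusted p = 0.000117). Slfn5os, a noncoding RNA gene on the strand opposite to Slfn5, averaged 7.47 ± 0.14 in adiponectin cultures and 7.22 ± 0.04 in control cultures (SD, n = 5 each; limma adjusted p = 0.22). Slfnl1, a schlafen-like gene on chromosome 4, averaged 7.94 ± 0.07 in adiponectin cultures and 7.94 ± 0.12 in control cultures (SD, n = 5 each; limma adjusted p = 0.992). Slfn14 is not analysed here.

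The listed genes on either side of the cluster did not pass the test. Of 12 flanking genes chosen by position, 11 were analysed here, and 0 of 11 were called in either direction (limma adjusted p under 0.05, lowest 0.590), against 2.05% of all genes called higher and 0.371% called lower. Their mean differences lay between -0.09 and 0.15, with a median of 0.03, and none of the 11 came near the smallest schlafen difference of 0.56. The 2 largest in size were those of Gas2l2, at 0.15 ± 0.16, and Rasl10b, a Ras-like GTPase gene, at 0.11 ± 0.21 (n = 5 pairs; limma adjusted p = 0.590 and 0.814). At an unadjusted p under 0.05 the count was 0 of 11, where 5.91% of all genes were positive and 4.21% negative, so a count of 0 in so short a list is near the background. The list ended at Gas2l2 on the side of Slfn14. Ccl5, which rose by 3.47 ± 0.52 (limma adjusted p = 1.14e-06), lies a few genes past Gas2l2, outside the list. The other genes past the list are not given here.

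**Figure D5:**
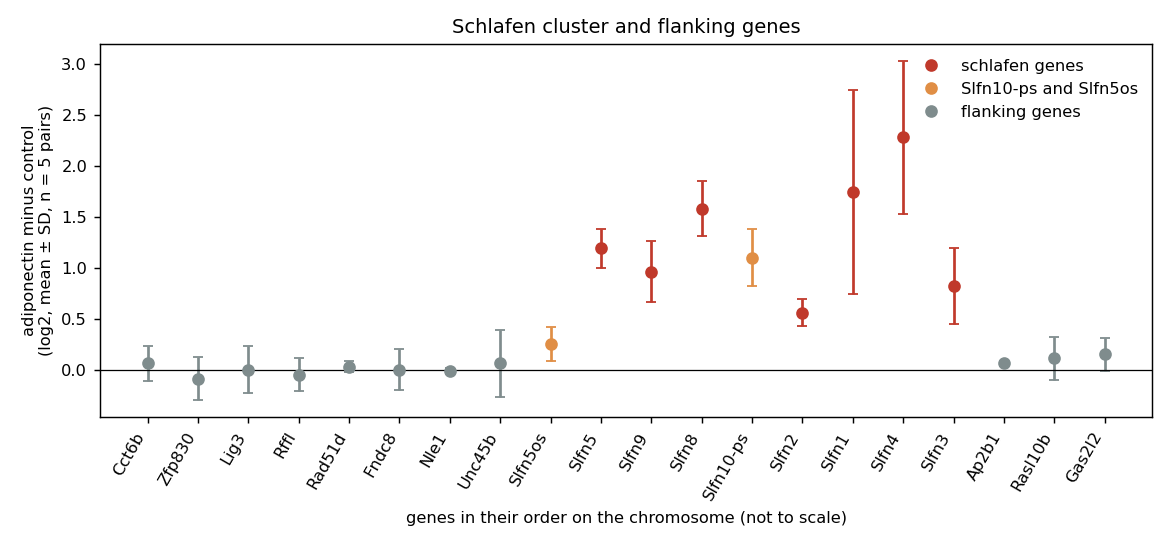
Adiponectin minus control difference (log2, mean ± SD, n = 5 pairs) of the schlafen genes in red, Slfn10-ps and Slfn5os in orange and 11 flanking genes in grey, in their order on the chromosome and not to scale. The red points stand between 0.56 and 2.28, while the grey points lie between -0.09 and 0.15.

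Of 10 listed genes of type I interferon signalling, 9 were analysed here. Of the 9, 4 rose and 0 fell, against 2.05% of all genes called higher and 0.371% called lower. The 4 were Irf7, the factor that amplifies interferon production, by 1.76 ± 0.44 log2 units (limma adjusted p = 3.15e-05), Stat2 by 1.52 ± 0.21 (4.4e-06) and Irf9 by 0.72 ± 0.08 (0.000166), which encode parts of ISGF3, and Irf1 by 0.79 ± 0.26 (0.000968; n = 5 pairs each). The receptor genes Ifnar1 and Ifnar2 differed by 0.02 ± 0.16 and 0.04 ± 0.09, the kinase genes Jak1 and Tyk2 by 0.02 ± 0.02 and 0.27 ± 0.16, and Irf3 by -0.15 ± 0.16 (n = 5 pairs each; limma adjusted p 0.143 to 0.977). The median of the 9 was 0.27, below the 1.19 of the schlafen genes.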

How the data were processed

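RNA of each culture was hybridised to 1 Affymetrix whole-transcript array. The log2 values, as deposited, hold 1 number per probe set and array, and the submitters' processing notes name RMA, Partek and Affymetrix Expression Console as tools. Their versions and order, and the genome build, are not stated. RMA includes quantile normalization, which removes much of a shift common to most genes. Medians over named genes lay between 8.27 and 8.48 on the 10 arrays, and no arrays were duplicates.

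Of 35556 probe sets, 21789 had 1 gene symbol in the platform annotation, 1621 had several and 12146 none. The highest-mean probe set stood for each of 999 genes with more than 1, which left 19938 genes, without a filter on dim genes. Signal over background is unknown. All 7 members matched RefSeq by symbol.

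Tests were two-sided moderated fits in limma 3.58.1 (R 4.3.3), with p-values adjusted by Benjamini-Hochberg over all 19938 genes and called under 0.05. For the adiponectin effect, treatment was fitted with a block for each of the 5 times (4 residual degrees of freedom). For its change, a product of treatment and log2 hours was added (3). Courses were log2 hours slopes with a separate line for each arm (6). The pairing comes from the times in the labels, and the differences of any 2 pairs correlated at 0.11 to 0.64 across genes, which are not independent replicates. The fits were tested on simulated data.

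Named were all members, the other schlafen genes, flanking and interferon signalling genes by fixed lists, and for each member the 3 genes outside the family with the highest Pearson r. Members and lists were chosen with earlier results of these data known. Motifs were searched and windows aligned in Python 3.11.15 with Biopython 1.88. Alternatives covered block, scaling, moderation, dim genes, probe sets, time scale and each pair left out. The depth of an array has no count, so the number of arrays limits the precision.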

Additional observations from a re-analysis of the deposited data

Results flagged for a closer look

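At 120 h the adiponectin culture was at 11.72 log2 units for Slfn1 and 11.24 for Slfn4, while the control culture stood far from the other 4 control cultures for both genes. Slfn1 was at 8.26 in that control culture, with the gap to the next value making up 0.74 of the whole range of the arm, and Slfn4 was at 7.74, with a gap share of 0.751; the limit for 5 samples is 0.71. Of 21 such groups of 5 values (both arms and the differences of each member), these 2 passed, and chance passes about 1 in 20. The groups are not independent. Both passing values come from the same array, the levels of Slfn1 and Slfn4 correlated at 0.98, and the differences are made from the arms. The 2 can therefore not be set against that rate as separate events. The 5 cultures of an arm were taken at different times, so a far value can be a late one. No second culture was measured at 120 h.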

How the results depend on the processing

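All 7 schlafen genes were higher in adiponectin cultures under each of the 13 alternatives for the adiponectin effect. The count of 7 called became 3 with no replicate block, that is without pairing by time, and 0 in the ordinary test. It stayed at 7 with any 1 pair left out, and the cause of the losses was not tested. In the control arm the count of 1 called negative slope became 4 with linear hours, 0 with the arrays of the arm alone, 0 in the ordinary test, and 0 to 1 with 1 pair left out. Over all genes, calls for the adiponectin effect numbered 9 to 420 higher and 0 to 117 lower across settings, against 408 and 74 as reported, and 292 to 379 and 21 to 62 with 1 pair left out. Called slopes varied more, at 7 to 1143 positive and 13 to 919 negative in the adiponectin arm against 827 and 689 as reported, and at 3 to 1743 and 3 to 1694 in the control arm against 925 and 888. Without the 120 h pair they numbered 23 and 15 in the adiponectin arm and 5 and 17 in the control arm. Called changes of the effect with time numbered at most 2 positive and 3 negative.

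Signs turned only for terms that were not called. With arrays centred on their medians, the change of the effect was 0.03 for Slfn2, and the control slopes were -0.02 for Slfn5, -0.0014 for Slfn8 and -0.03 for Slfn9. With linear hours, per hour, the change was 9e-04 for Slfn2, the adiponectin slope -0.00026 for Slfn9, and the control slopes -8.1e-05 for Slfn5 and -0.00036 for Slfn9. With 1 pair left out, the change ranged over -0.04 to 0.05 for Slfn2, -0.01 to 0.12 for Slfn3 and -0.09 to 0.07 for Slfn9. The adiponectin slopes then ranged over -0.26 to 0.09 for Slfn1, -0.42 to 0.12 for Slfn4, -0.10 to 0.00041 for Slfn5 and -0.01 to 0.05 for Slfn9, and the control slopes over -0.0094 to 0.06 for Slfn5, -0.007 to 0.09 for Slfn8 and -0.06 to 0.09 for Slfn9. Signal over background is unknown, and 1 culture per arm and time limits every single value.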
